A study of Mus musculus with 18 samples.

Results

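The comparison spans the longest stretch of a mouse embryonic stem cell differentiation toward heart muscle: the 3 libraries harvested on day 15 (D15) against the 3 harvested on day 5 (D5), 6 of the 18 libraries of the series, described over all 13116 of 23337 gene symbols that had enough counts to be tested. The samples were chosen by their day of harvest alone. The labels give the cell line of both days as TBX5-FTA and its strain as A2Lox.cre, embryonic stem cells built to take up inducible transgenes. Both days were untreated. What the line carries beyond its name is not stated in the labels. The labels call the D5 cells cardiac progenitor cells and the D15 cells immature cardiomyocytes. Each library was made from poly(A) RNA of cells in culture. The 12 libraries of days 6, 7, 8 and 10 (D6, D7, D8, D10) entered the fit and are used here to place a change between the ends. The series asks about Hedgehog signalling and about genes that act at set times of differentiation. No perturbed sample was part of this comparison, and day, stage and time in culture cannot be told apart. A single line was used. Whether same-day libraries are separate cultures is not stated, so the p-values rest on a spread between libraries that may be technical.

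Heart muscle forms from mesoderm through a progenitor stage in which cells still divide fast, make ribosomes and carry regulators of the early embryo. Maturing cardiomyocytes then assemble sarcomeres, calcium stores and ion channels, shift their fuel toward fatty acids and slow their division. In the heart, fibroblasts, mesothelial cells of the epicardium, vessel cells and others form beside them and lay down the collagen-rich matrix between the muscle cells.

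At D5 the 12 defining cardiomyocyte markers summed to 276, 256 and 225 CPM (counts scaled to a library of common size) in the 3 libraries, most of it from a few members such as Tnnt2, the cardiac troponin T, with 130.1, 121 and 107 CPM. Myl2, Tnni3 and Pln were close to 0, Myl2 at 0, 0.1398 and 0.273 CPM. At D15 the 12 summed to 7613, 5773 and 4518 CPM, and 11 of the 12 rose, against 40.3% of all genes tested. The exception was Nppa, the atrial natriuretic peptide of embryonic heart muscle, with 1.89, 2.796 and 3.54 and 3.001, 1.42 and 3.04 CPM. Of 13 cardiac progenitor markers 11 were tested, 4 rose and 6 fell, and their sums were 1187, 1311 and 1473 CPM at D5 and 1095, 1022 and 952 CPM at D15. Hand1, a factor of early heart mesoderm, fell from 466, 562 and 726 to 6.35, 5.14 and 7.52 CPM, and Isl1, the marker of the second heart field, from 16.6, 17.8 and 11.3 to 3.001, 3.01 and 1.12 CPM, while Tbx20 rose from 252, 259 and 314 to 602, 551 and 498 CPM. The 15 fibroblast markers summed to 500.4, 501 and 535 CPM at D5 and to 38440, 44060 and 47510 CPM at D15, where all 13 with enough counts for the test rose. The D15 libraries thus stood in opposite orders on the cardiomyocyte and the fibroblast list. Markers of mesothelium and epicardium summed to 893, 867 and 846 CPM at D5 and 4106, 4336 and 4364 CPM at D15. Markers of endothelium, the lining of vessels, summed to 113, 113 and 127 and 569.7, 483 and 376 CPM. Those of fat cells summed to 7.86, 11.6 and 10.4 and 1103, 1139 and 1063 CPM. Of the 8 fat cell markers 3 had enough counts for the test and 4 had no count at D15, so few members carry that sum. Pluripotent cell markers fell in sum from 1073, 1036 and 993 CPM to 2.29, 1.77 and 2.88 CPM, Lin28a carrying nearly all of the D5 value. Hepatic and yolk sac endoderm markers summed to 2.18, 1.82 and 0.954 CPM at D5 and to 6.18, 74.97 and 9.92 CPM at D15, so that the second D15 library stood apart from the other two. Afp, a fetal liver and yolk sac protein, had 1.59, 24.3 and 1.28 CPM in these libraries. In RNA from whole cultures, more cells of a type and more RNA per cell cannot be told apart.

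**Figure D1:**
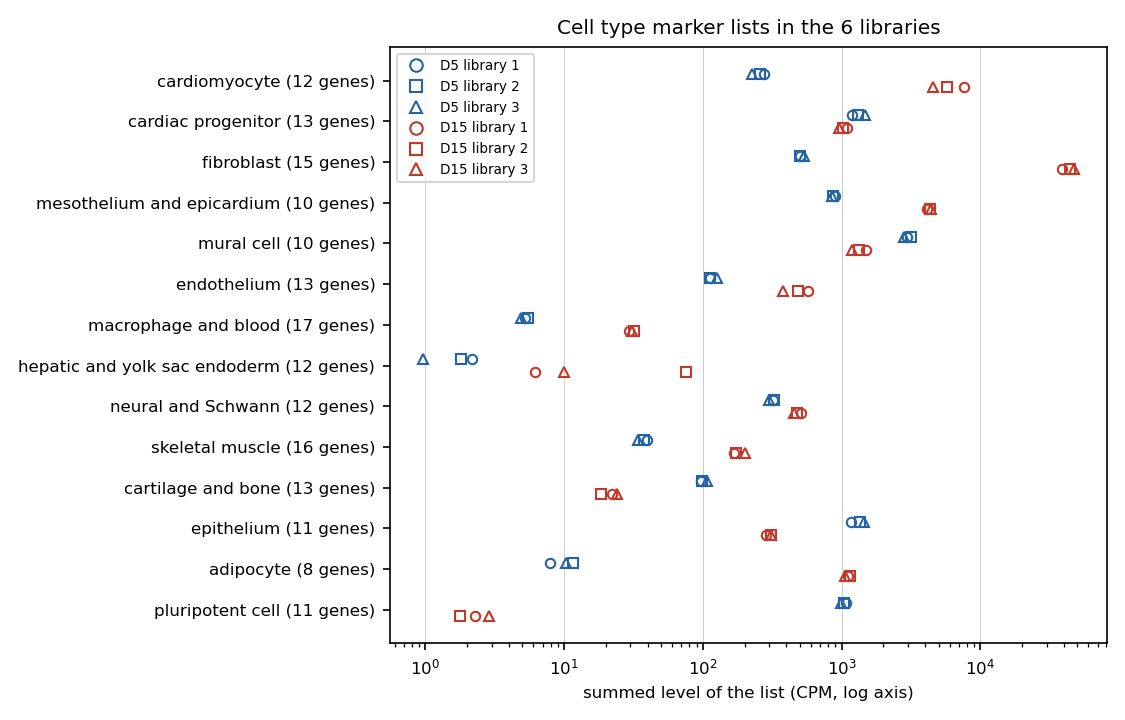
Summed level in CPM (log axis) of 14 lists of cell type markers in each of the 3 D5 libraries (blue) and the 3 D15 libraries (red). Fibroblast markers lie between 500.4 and 535 CPM at D5 and between 38440 and 47510 CPM at D15, and 1 D15 library stands apart on the hepatic and yolk sac list.

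Most of the transcriptome differed between the ends. With edgeR's quasi-likelihood test and Benjamini-Hochberg adjustment, 10231 of 13116 genes (78.0%) passed an adjusted p of 0.05, of which 5283 rose (40.3% of genes tested) and 4948 fell (37.7%). The libraries of the days did not overlap for 10497 genes (80.0%). The median change over all genes tested was 0.03 on the log2 scale. Scaling of the libraries sets the bulk of changes near 0, so levels are relative and the near-even split is partly set by it. Rises were the larger changes. Among called genes, 3243 rose and 1946 fell by at least 2-fold, 1936 rose and 592 fell by at least 4-fold, and 894 rose and 176 fell by at least 16-fold. Genes that rose held 23.7 ± 0.10% (SD, n = 3) of the counts at D5 and 56.9 ± 0.41% at D15, and genes that fell went from 62.4 ± 0.17% to 30.7 ± 0.49%. The genes were sorted by calls from these same libraries, so the direction of these shares is no separate result. Library totals were 6689537 to 7122093 counts at D5 and 6121454 to 6831683 at D15. Libraries of 1 day differed by a root mean square of 0.337 to 0.349 (log2 CPM) at D5 and 0.358 to 0.434 at D15, against 1.82 to 1.91 between the days.

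**Figure D2:**
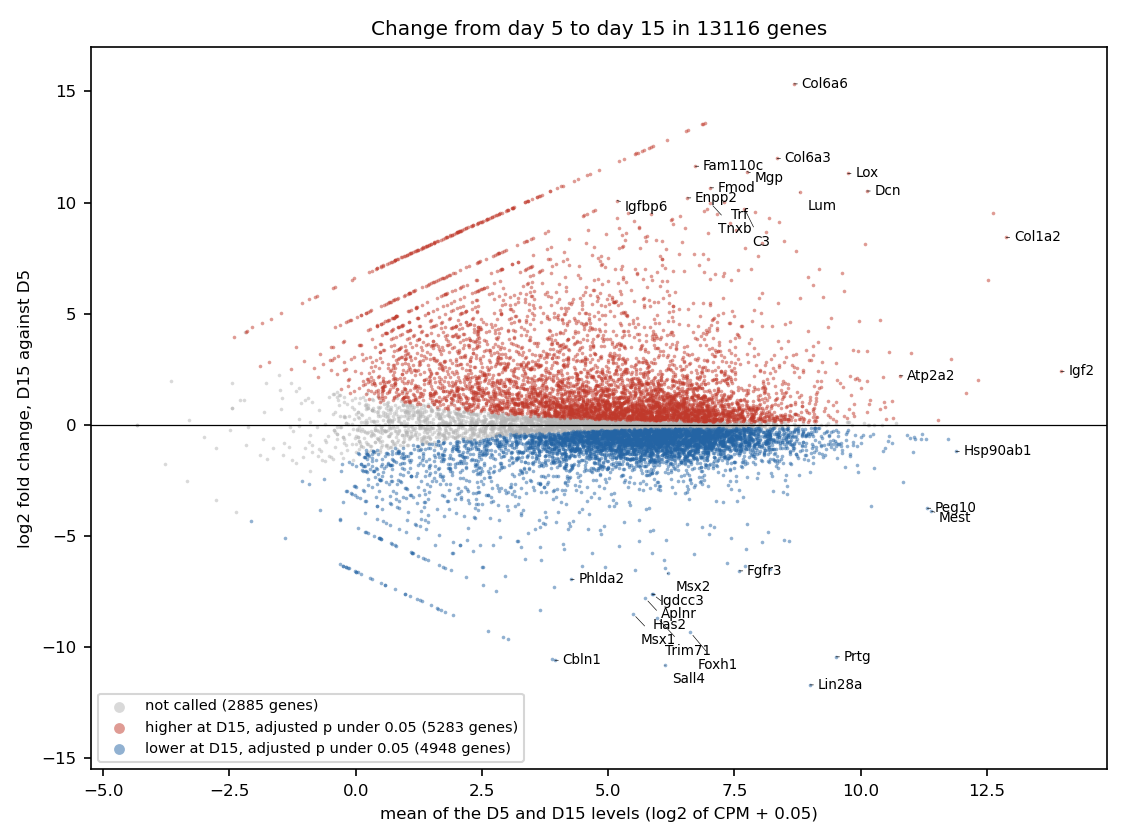
Log2 fold change of D15 against D5 for the 13116 genes tested, against the mean of the 2 days in log2 CPM, with 5283 genes higher at D15 in red, 4948 lower in blue and 2885 not called in grey. The largest rises reach further from 0 than the largest falls, and straight rows of points at the upper and lower left are genes with few or no counts on one day.

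Of the 12 largest rises among genes with a count on both days, many were in genes of the extracellular matrix. Col6a3, a chain of the collagen VI microfibrils that surround cells (chr1:90765923-90843971, minus strand, mm10), had 0, 0 and 0.409 CPM in the D5 libraries and 644, 605 and 699.6 CPM at D15. Its ratio of counts was 4640 (95% counting interval 1590 to 22500). Lox, the enzyme that cross-links collagen and elastin, went from 0.291, 0.559 and 1.09 to 1641, 1715 and 1777 CPM, a log2 fold change of 11.31 ± 0.21 (SE, adjusted p = 4.62e-19). Dcn (decorin) and Lum (lumican), leucine-rich proteoglycans that bind collagen fibrils, rose from 1.46, 1.12 and 1.91 to 1996, 2348 and 2335 CPM and from 0, 0.1398 and 1.64 to 798, 882 and 977 CPM. Fmod, another member of that family, rose from 0, 0.1398 and 0.273 to 222, 224 and 332 CPM. No overlap between the libraries of the 2 days was a condition for naming the largest rises, so it is no separate result. Mgp, an inhibitor of calcification in vessel walls and cartilage, rose from 0, 0.419 and 0 to 427, 443 and 418 CPM, and Tnxb, a tenascin of connective tissue, from 0.291, 0.1398 and 0.273 to 227, 264 and 285 CPM.

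Secreted enzymes and carriers made up most of the other large rises. Enpp2 (autotaxin), which makes the signalling lipid lysophosphatidic acid, rose from 0.291, 0.1398 and 0 to 179, 198 and 192 CPM. Trf, the iron carrier transferrin, rose from 0.582, 0.1398 and 0.136 to 379, 296 and 262 CPM, and C3, the central complement protein, from 0.728, 0 and 0.682 to 401, 382 and 459 CPM. Igfbp6, a binding protein of insulin-like growth factors, had 0.146, 0 and 0 CPM and then 59.1, 73.02 and 84.5 CPM. Fam110c, a centrosome-associated protein, had 0, 0 and 0.136 CPM and then 204, 220.1 and 209.9 CPM, a ratio of counts of 4520 (95% counting interval 810 to 178000). Its mean was 0 at D6, D7 and D8 and 1.74 CPM at D10, so nearly all of its rise came between D10 and D15.

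Of the genes tested, 169 had no count in any D5 library. Those with the highest D15 level came from several tissues. Col6a6, another collagen VI chain, had 758, 812 and 888 CPM at D15, at least 5850-fold above the floor of 3 counts over the D5 group. Angptl7, a secreted angiopoietin-like protein, had 204, 200.5 and 301 CPM (at least 1690-fold), and Msln, the mesothelial surface protein mesothelin, 255, 229.7 and 213 CPM (at least 1650-fold). Heart and muscle genes in this set were Casq2, the calcium store protein of cardiac sarcoplasmic reticulum, with 251, 187 and 139.7 CPM (at least 1360-fold), and Ckm, the muscle creatine kinase, with 134, 122 and 89.9 CPM (at least 816-fold). In both, the first D15 library was highest and the third lowest, the order of the cardiomyocyte markers. Fabp4, a fatty acid carrier of fat cells and capillary endothelium, showed the same order with 143, 106 and 87.4 CPM (at least 792-fold). Igfbp7, a secreted binding protein abundant in vessels, had 135, 119 and 101 CPM (at least 839-fold). Xdh, the xanthine oxidoreductase of purine breakdown, had 134, 151 and 144 CPM (at least 1020-fold) and Gpr133, an adhesion receptor now named Adgrd1, 187, 182 and 192 CPM (at least 1330-fold). The symbol Clca1, with 230.3, 249 and 250 CPM (at least 1730-fold), is also an older name of another chloride channel accessory gene, and which one was counted was not given.

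The 12 largest falls included regulators of the early embryo. Lin28a, the RNA-binding protein that blocks maturation of let-7 microRNAs (chr4:134003330-134018841, minus strand), dropped from 1060, 1021 and 980.5 to 0.177, 0.354 and 0.32005 CPM, a log2 fold change of -11.71 ± 0.16 (SE, adjusted p = 3.40e-30). Trim71, itself a target of let-7, fell from 120.5, 116 and 138 to 0.177, 0.532 and 0.16002 CPM. Sall4, a zinc finger factor of pluripotent and progenitor cells, fell from 138, 139 and 139.6 to 0, 0.177 and 0 CPM, its D15 value resting on 1 count. Foxh1, the nuclear partner of SMADs in Nodal signalling, fell from 195, 201 and 194 to 0.5295, 0.354 and 0 CPM. Msx1 and Msx2, homeobox genes downstream of BMP, fell from 59.95, 85.7 and 123 to 0.353, 0 and 0.32005 CPM and from 133, 142 and 154 to 1.06, 2.48 and 0.6401 CPM. The D5 libraries of Msx1 spread over more than those of the other genes named here.

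Surface molecules made up most of the other large falls. Prtg (protogenin) and Igdcc3, related immunoglobulin-superfamily receptors, fell from 1477, 1426 and 1473 to 1.06, 0.709 and 1.28 CPM and from 91.97, 119.8 and 136 to 0, 0.886 and 0.8001 CPM. Igdcc3 was higher at D6 (mean 188 CPM) than at D5 before it fell. Aplnr, the apelin receptor of migrating heart precursors, fell from 114, 109 and 129 to 0.353, 1.06 and 0.32005 CPM, and Fgfr3, a receptor of fibroblast growth factors, from 353, 391 and 405 to 3.88, 4.61 and 3.52 CPM. Has2, the main hyaluronan synthase of the embryonic heart, fell from 101, 97.3 and 119 to 0.5295, 0 and 0.8001 CPM after day means of 125 CPM at D7 and 155 CPM at D8. Phlda2, an imprinted gene known as a brake on placental growth, fell from 32.2, 36.8 and 44.9 to 0.177, 0.354 and 0.32005 CPM.

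At D15, 43 tested genes were without a count. Cbln1, a synaptic organiser of the cerebellum, had 35.7, 29.9 and 26.6 CPM at D5, which makes it at least 179-fold lower at D15. Vrtn, known for its effect on vertebra number, had 25.9, 33.8 and 28.8 CPM (at least 173-fold). The others included the primitive streak genes Wnt3 with 14.99, 14.4 and 18.7 CPM (at least 94.0-fold) and Eomes with 5.24, 7.55 and 5.32 CPM (at least 35.3-fold). Sall3, a relative of Sall4, had 11.1, 12.3 and 13.1 CPM (at least 71.2-fold), and Hoxd1 had 6.26, 5.31 and 11.04 CPM (at least 44.4-fold). Dnmt3l, the partner of the de novo DNA methyltransferases in germ and stem cells, had 5.24, 5.87 and 5.45 CPM (at least 32.3-fold). Npbwr1, a neuropeptide receptor, had 8.003, 5.45 and 6.82 CPM (at least 39.5-fold), Wnt9b 5.68, 6.29 and 7.09 CPM (at least 37.3-fold) and Fam123c, now named Amer3, 13.97, 12.9 and 18.1 CPM (at least 87.9-fold).

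The changes were spread over the whole course. Of the genes that rose at least 4-fold, the median share of the log2 change already present was 10.6% on D6, 22.7% on D7, 42.7% on D8 and 70.0% on D10. Of those that fell at least 4-fold the medians were 17.1%, 34.3%, 48.9% and 66.4%. A steady order of the 6 day means was seen in 29.6% of the 1936 rises and in 26.4% of the 592 falls. Equal means on successive days, such as 0, and small reversals broke that order. A middle day lay beyond the D15 level by over 1 log2 unit in 85 rises and 20 falls. Against the change, a middle day lay beyond the D5 level by as much in 113 rises and 31 falls. Large rises differed in timing. Lum had reached 118 CPM and Fmod 50.4 CPM at D8, when Mgp stood at 0.491 CPM and C3 at 0.544 CPM. Enpp2 was at 0.808 CPM at D10.

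Genes not called between the ends did not all have a flat course. Of 2885 genes not called between D5 and D15, 1648 were called across the 6 days (11663 genes, 88.9% of those tested, were so called). A middle day lay more than 1 log2 unit above both ends in 162 of them and below both ends in 150. Odz2, a teneurin of cell adhesion now named Tenm2, had 2.47, 2.24 and 1.77 CPM at D5 and 3.53, 3.37 and 3.36 CPM at D15, with day means of 77.8 at D7 and 90.4 at D8. Itga4, the integrin chain that binds VCAM1 and fibronectin, had 13.7, 14.96 and 23.997 and 15.003, 11.9 and 10.1 CPM at the ends and a mean of 244 CPM at D10. Hsd11b2, which inactivates glucocorticoids, had means of 14.2, 131 and 8.63 CPM at D5, D10 and D15. Foxp1, a forkhead factor of the developing myocardium, had 51.2, 52.1 and 50.3 CPM at D5, a mean of 224 CPM at D8 and 44.1, 42.005 and 50.7 CPM at D15. Sema6a, Oprl1 and Asb4 had D8 means of 76.5, 26.1 and 135 CPM, against means between 7.499 and 37.7 CPM at the ends. In the other direction Extl1, of heparan sulphate synthesis, had 33.03, 34.8 and 35.5 and 46.8, 38.5 and 36.5 CPM at the ends and a mean of 4.31 CPM at D8. Fam38b, the stretch-activated channel now named Piezo2, had end means of 28.5 and 34.9 CPM around 6.15 CPM at D8. Pdlim3, a protein of the Z disc, had end means of 36.7 and 34.7 CPM and 7.65 CPM at D7. Tnfrsf21, a death receptor, had 45.3 and 41.9 CPM around 9.64 CPM at D8. The adjusted p between the ends was 0.079 for Odz2, 0.056 for Itga4 and 0.053 for Hsd11b2, and lay between 0.1 and 0.66 for Extl1, Fam38b, Tnfrsf21 and Pdlim3. Some of these calls are close: leaving out single libraries made Itga4, Hsd11b2, Foxp1 and Asb4 differ between the ends, at -0.67, -1.11, -0.25 and -0.56 on the log2 scale. The libraries left out were the first at D5 for Itga4 (likewise the second at D5 or the first at D15, with -0.63 and -0.68), the third at D15 for Hsd11b2 and Foxp1, and the first at D15 for Asb4.

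**Figure D3:**
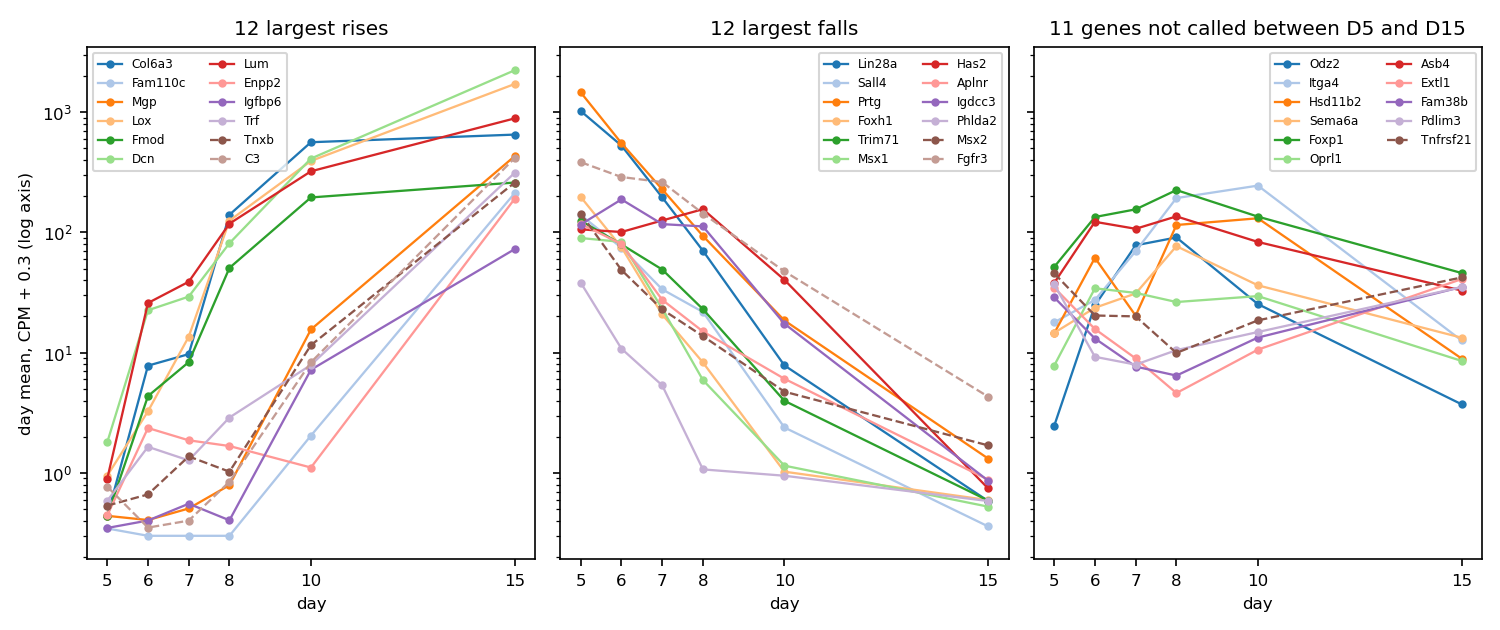
Mean level of the 3 libraries of each day (CPM + 0.3, log axis) on the 6 days for the 12 largest rises, the 12 largest falls and 11 genes not called between the ends but called across days. Rises such as Fam110c and Mgp come late, Has2 and Igdcc3 peak before they fall, and the genes of the third panel leave their D5 level and come back toward it.

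The genes with the most counts also changed. The first 10 held 4.02 ± 0.05% (SD, n = 3) of the counts at D5 and 8.87 ± 0.50% at D15, and Igf2 alone was among the first 10 on both days. At D5 the list was led by the chaperone Hsp90ab1, with 5216, 5226 and 5377 CPM, which fell to 2366, 2241 and 2268 CPM. The glucose transporter Slc2a1 fell from 2966, 3146 and 3269 to 649, 509.7 and 429 CPM, the tubulin Tubb5 from 2859.7, 3093 and 2879 to 1219.6, 1271 and 1329 CPM, and the elongation factors Eef2 and Eef1a1 by 0.62 and 0.66 on the log2 scale. The cytoskeletal genes Flna and Actb fell by 0.66 and 0.44. At D15 the list held Igf2, Col1a2, Col3a1, Col1a1, Fn1, H19, Sparc, Col4a1, Nedd4 and Atp2a2. Igf2, the fetal growth factor, rose from 5119, 5076 and 5089 to 24109.6, 27628 and 28664 CPM. Col1a2, a chain of type I collagen, rose from 46.6, 39.3 and 45.1 to 13509, 15116 and 16501 CPM, and Fn1 (fibronectin) from 2029, 1876 and 2178 to 7828, 7791 and 8933 CPM. Sparc, a collagen-binding matrix protein, rose from 805, 853 and 773 to 6265, 6282 and 6291 CPM. Nedd4, a ubiquitin ligase, was high on both days, with 2684, 2706 and 2798 and 3132, 3148 and 3237 CPM, and its rise of 0.22 ± 0.05 (log2, SE) was small. Atp2a2, the calcium pump of the sarcoplasmic reticulum, rose from 646, 629.9 and 594 to 3686, 2825 and 2081 CPM.

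Gene families were read against the shares of all genes tested, 40.3% risen and 37.7% fallen.

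**Figure D4:**
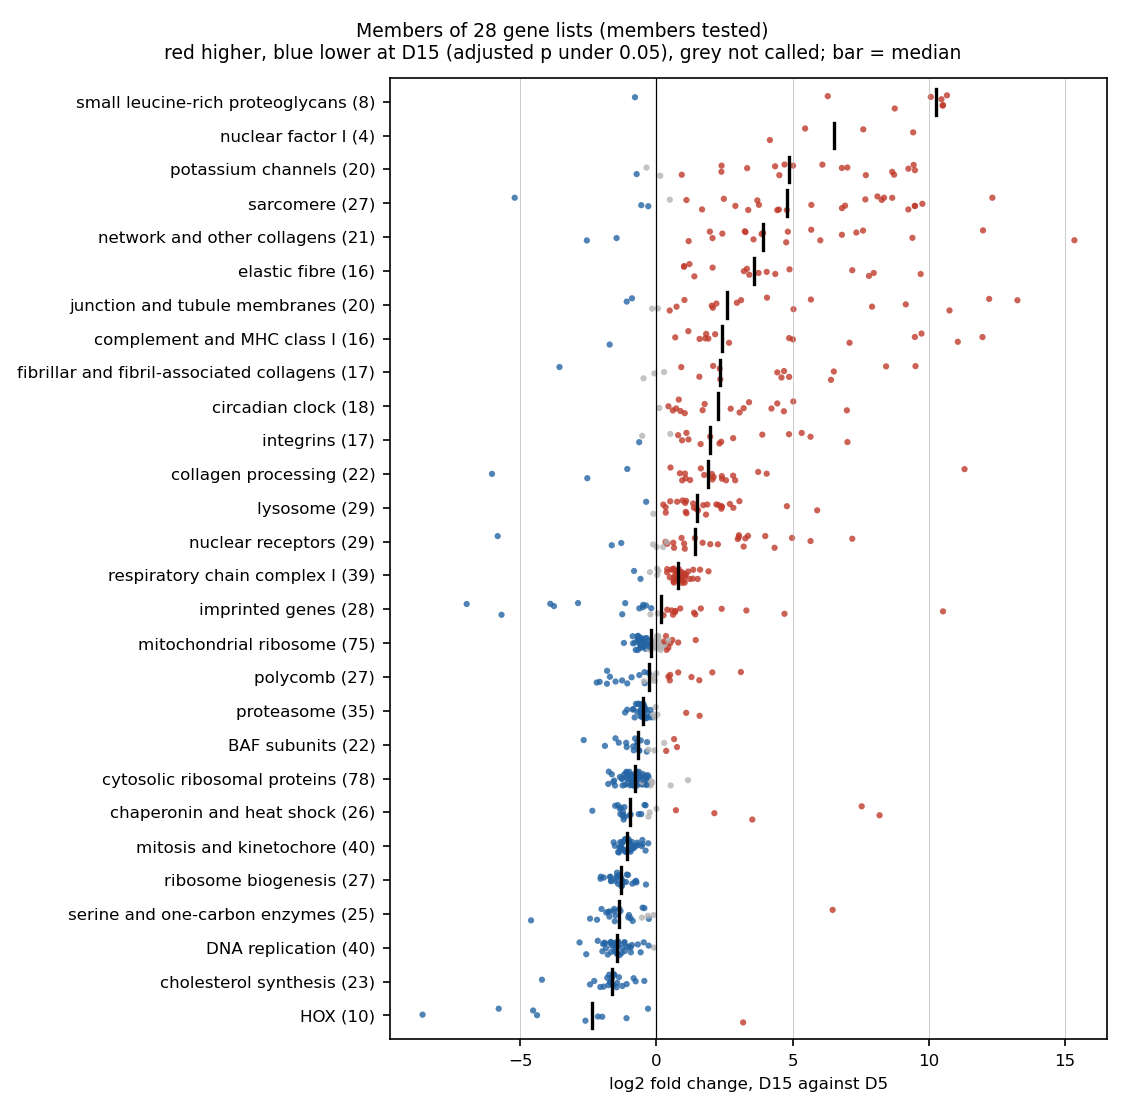
Log2 fold change of D15 against D5 for each tested member of 28 gene lists, red for higher, blue for lower and grey for not called, with the median of each list as a black bar and the number of members tested in parentheses. All members of the nuclear factor I and elastic fibre lists lie right of 0, and all called members of the ribosome biogenesis, cholesterol synthesis, DNA replication and mitosis lists lie left of it.

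Among transcription factors, the nuclear factor I family rose as a whole. These factors bind DNA as dimers and are known for late steps of differentiation in several organs. Nfib went from 2.33, 3.21 and 2.18 to 493, 485 and 523 CPM, a log2 fold change of 7.59 ± 0.12 (SE, adjusted p = 4.27e-29). Nfic went from 7.28, 5.17 and 4.91 to 244, 259.8 and 259 CPM, Nfia from 17.2, 12.02 and 10.4 to 233, 233 and 242 CPM and Nfix from 0, 0.1398 and 0 to 35.3, 48.2 and 53.4 CPM. No D15 library of any of the 4 genes overlapped a D5 library, which held for 80.0% of all genes tested.

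On the nuclear receptor list, ligand-gated factors for steroids, thyroid hormone, retinoids and lipids, 29 of 37 were tested, 22 rose and 3 fell (median log2 fold change 1.41). Nr3c1, the glucocorticoid receptor, rose from 27.4, 23.2 and 21.95 to 197, 180.2 and 212 CPM. Thra, the thyroid hormone receptor alpha, rose from 30.8, 30.2 and 36.8 to 161, 158 and 149.8 CPM. Esrra, a regulator of mitochondrial genes, rose from 9.17, 12.7 and 11.04 to 43.8, 43.95 and 42.1 CPM. Nr6a1, the germ cell nuclear factor that silences pluripotency genes, went the other way, from 208, 204 and 200.4 to 3.18, 2.13 and 5.28 CPM. Rarg, a retinoic acid receptor, fell from 86.9, 96.03 and 89.99 to 26.3, 29.6 and 31.5 CPM.

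The HOX genes, which set position along the body axis, fell. Of 39 on the list 10 were tested, 9 fell and 1 rose (median log2 fold change -2.38). Hoxb1 fell from 106, 125 and 112 to 1.59, 1.42 and 3.04 CPM and Hoxb2 from 77.3, 93.4 and 84.3 to 12.2, 16.1 and 13.6 CPM. Hoxd8 rose from 0.291, 0.1398 and 0.682 to 3.18, 5.32 and 2.24 CPM, a low level on both days. The genes that fell furthest were of the groups expressed nearest the head end.

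On the circadian clock list 17 of 18 tested members rose, with a median log2 fold change of 2.25. The clock is a loop in which CLOCK and its partners switch on their own inhibitors. Per1 and Per2, inhibitors of the loop, rose from 19.9, 22.8 and 17.998 to 128, 131 and 142 CPM and from 1.46, 1.54 and 2.9996 to 53.7, 39.9 and 38.2 CPM. Npas2, which can stand in for CLOCK, rose from 0.582, 1.26 and 1.91 to 46.6, 39.7 and 38.7 CPM. Hlf, an output factor of the clock, rose from 0.728, 1.26 and 0.136 to 98.3, 89.3 and 87.7 CPM. The hour of harvest is not given in the labels, so phase and level of the clock cannot be told apart.

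Regulators of growth moved in both directions. On the list of MYC family and LIN28 pathway genes 8 of 16 tested members fell and 4 rose, with a median log2 fold change of -0.86. Hmga2, a chromatin protein held down by let-7, fell from 386, 375 and 343 to 40.2, 35.8 and 39.5 CPM. The RNA-binding protein Igf2bp1 fell from 661, 629 and 660.3 to 94.6, 109 and 88.7 CPM and Lin28b from 148, 137 and 129 to 1.41, 1.42 and 1.76 CPM. The MYC antagonists Mxd4 and Mxi1 rose from 14.8, 14.4 and 12.7 to 72.7, 83.3 and 84.5 CPM and from 12.7, 13.98 and 11.2 to 61.2, 45.5 and 46.2 CPM. Mycn, the MYC form of progenitors, fell from 149, 152 and 148 to 28.2, 33.3 and 32.5 CPM, and Myc itself, with 19.5, 27.7 and 21.1 and 23.1, 22.9 and 21.1 CPM, did not pass the test (adjusted p = 0.91).

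Of the SOX factors, 7 of 11 tested members rose and 3 fell (median log2 fold change 1.15). Sox5 and Sox6, paired factors of cartilage and muscle development, rose from 7.28, 8.39 and 7.91 to 66.9, 57.6 and 56.5 CPM and from 19.9, 18.7 and 22.6 to 61.1, 63.5 and 72.2 CPM. Sox11, of embryonic progenitors, fell from 182, 169 and 157 to 22.1, 18.3 and 21.1 CPM. Of the immediate early genes, which answer to stimuli and to handling of cells, 8 of 14 tested members rose and 2 fell (median log2 fold change 1.04). Without the first D15 library the falls numbered 1. Fos rose from 5.38, 6.71 and 3.95 to 54.5, 49.98 and 39.8 CPM and Ier3 from 3.64, 5.45 and 3.14 to 74.8, 70.2 and 56.8 CPM.

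The machinery of protein synthesis fell together. On the ribosome biogenesis list, nucleolar proteins and assembly factors, 27 of 27 tested members fell, with a median log2 fold change of -1.302. Ncl (nucleolin) fell from 1975, 1944 and 1880.1 to 805, 829 and 885 CPM, Nop2, a ribosomal RNA methylase, from 161, 158 and 139.6 to 42.7, 49.8 and 48.8 CPM and Nolc1 from 228, 222 and 211 to 75.9, 83.5 and 88.8 CPM. Of the proteins of the cytosolic ribosome, 65 of 78 tested members fell, with a median log2 fold change of -0.79. Rpl4 fell from 1916, 1989.7 and 1870.4 to 957, 862 and 936 CPM. Many ribosomal protein genes have near-identical processed copies, and their counts are uncertain. Of the tRNA synthetases, 29 of 37 tested members fell and 3 rose, with a median log2 fold change of -0.67. Kars fell by 1.03 on the log2 scale, and Sars went the other way by 0.36 ± 0.07 (SE). Of the proteins of the mitochondrial ribosome, 35 of 75 tested members fell and 10 rose, with a median log2 fold change of -0.19. Its members split, with Mrpl11 at -0.86 ± 0.09 and Mrpl33 at 0.801 ± 0.12 (log2, SE).

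Protein folding followed the same direction with exceptions among small heat shock proteins. On the chaperonin and heat shock list 18 of 26 tested members fell and 5 rose, with a median log2 fold change of -0.97. Cct4 and Tcp1, subunits of the ring that folds actin and tubulin, fell from 641, 629 and 641 to 222, 223 and 224 CPM and from 867, 873 and 833 to 352, 353 and 338 CPM. Hsph1 fell from 205, 189.7 and 185 to 32.3, 40.8 and 40.5 CPM. Hspb6, a small heat shock protein of muscle, rose from 2.33, 2.94 and 3.14 to 43.6, 30.7 and 23.04 CPM.

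Synthesis of nucleotides, one-carbon units and sterols fell as well. On the serine and one-carbon list, which holds purine and pyrimidine enzymes too, 21 of 25 tested members fell and 1 rose, with a median log2 fold change of -1.36. Ppat, the first enzyme of purine synthesis, fell from 168, 163 and 166 to 29.7, 29.2 and 32.6 CPM and Cad, which starts pyrimidine synthesis, from 408, 420.2 and 409 to 77.3, 94.3 and 101 CPM. Aldh1l2, the mitochondrial folate enzyme, was the exception, with 1.31, 1.68 and 1.77 CPM at D5 and 186, 128 and 113 CPM at D15. On the cholesterol synthesis list 23 of 23 tested members fell, with a median log2 fold change of -1.62. Hmgcs1, an early enzyme of the pathway, fell from 1529, 1473 and 1560.2 to 443, 435 and 428 CPM and Mvd from 125, 127 and 134 to 23.8, 22.3 and 24.96 CPM. Amino acid transporters split, as 9 of 20 tested members rose and 8 fell (median log2 fold change 0.14).

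Genes of DNA replication and mitosis fell almost throughout. On the DNA replication list 39 of 40 tested members fell, with a median log2 fold change of -1.45. Mcm10 fell from 106, 110 and 104 to 16.4, 19.3 and 17.9 CPM and Rrm2, which makes deoxynucleotides, from 324, 318 and 295 to 81.2, 88.6 and 84.5 CPM. On the list of mitosis and kinetochore genes 40 of 40 tested members fell, with a median log2 fold change of -1.097. Bub1, of the spindle checkpoint, fell from 236, 221 and 227 to 75.5, 74.97 and 80.01 CPM, Ccna2 (cyclin A2) from 459.5, 442 and 438 to 167, 183 and 199 CPM and Cdc20, which triggers separation of chromosomes, from 138, 152 and 149 to 51.01, 63.3 and 57.3 CPM. The mitosis list kept a summed level of 3647, 3955 and 4226 CPM at D15, highest in the library with the most fibroblast marker counts, against 7962, 7647 and 7822 CPM at D5. On the list of cell cycle inhibitors and the retinoblastoma family, not all of them brakes of the cycle, 11 of 20 tested members rose and 5 fell (median log2 fold change 0.47). Rbl2, the p130 pocket protein of resting cells, rose from 6.26, 5.31 and 6.41 to 52.4, 52.99 and 49.8 CPM and the inhibitor Cdkn2c (p18) from 1.89, 1.398 and 1.09 to 18.7, 20.2 and 22.2 CPM. Ccnd1 (cyclin D1) fell from 69.6, 69.6 and 56.2 to 7.77, 4.61 and 4.64 CPM. Messages of replication-dependent histone genes mostly lack poly(A) tails, and of 68 such genes 4 had enough counts. All 4 rose, Hist1h1c from 4.95, 6.85 and 5.32 to 67.6, 64.7 and 64.97 CPM.

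Promoters of these lists, whose members moved together, were read from RefSeq (GRCm38.p6, 250 bases before to 50 after each annotated start). Each motif was searched on both strands in 13090 promoters of 10211 tested genes, each annotated start counting separately. The lists held few promoters, 37 for mitosis, 39 for DNA replication and 33 for sarcomere genes. The clock list held 21, ribosome biogenesis 24 and cholesterol synthesis 19. The letters TTTGAA, the core of the cell cycle homology region, stood in 70.3% of promoters of the mitosis list and in 11.7% of those of all tested genes. CCAAT stood in 81.1% and 37.6%. With the window cut to the 200 bases before the start, the shares of TTTGAA were 35.1% and 7.5%. On the DNA replication list TTTGGCG stood in 23.1% of promoters and TTTCCCG in 23.1%, against 2.41% and 5.68% of all, and in the shorter window TTTGGCG stood in 7.69% and 1.6% and TTTCCCG in 12.8% and 3.86%. Both are forms of the E2F site. Matches of different motifs were counted separately even where they overlapped. The CArG box, bound by serum response factor, stood in 24.2% of promoters of the sarcomere list, most of whose members rose, and in 1.34% of all. CACGTG, an E-box, and TCACNCCAC were searched after the values were seen. CACGTG stood in 28.6% of clock, 25.0% of ribosome biogenesis and 21.1% of cholesterol synthesis promoters, and in 9.85% of all. In the shorter window it stood in 28.6%, 8.33%, 21.1% and 7.32%, so the excess on the ribosome biogenesis list was not seen there. On the replication, mitosis and sarcomere lists its shares were 7.69%, 5.41% and 6.06%. TCACNCCAC stood in 0 or 1 promoters of each list and in 1.16% of all. CCAAT stood in 84.2% of cholesterol synthesis, 76.2% of clock, 51.3% of replication, 39.4% of sarcomere and 25.0% of ribosome biogenesis promoters. In the shorter window these shares were 78.9%, 57.1%, 46.2%, 30.3% and 16.7%, with 75.7% on the mitosis list and 31.5% of all. TATAAA stood in 12.1% of sarcomere promoters (4 of 33) and 7.11% of all. In the shorter window the shares were 3.03% (1 of 33) and 4.7%, and with so few promoters no direction is read from them. A match is a run of letters and was not tested for binding.

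The promoters below were chosen to show where these motifs lie, 120 bases up to the base before the annotated start, 5′ to 3′ on the strand of the gene, with matches on either strand in capitals. In 3 mitosis genes the capitals mark 1 pair of motifs. The first motif is CCAAT, which is written ATTGG where it lies on the opposite strand. The second motif is TTTGAA, which then reads as TTCAAA in the printed line. In each gene a match of the second motif near the start lies downstream of one of the first. The genes are Cdc20 (chr4:118437344-118437463, minus strand), Kif11 (chr19:37376262-37376381, plus strand) and Cdk1 (chr10:69352913-69353032, minus strand).
Cdc20: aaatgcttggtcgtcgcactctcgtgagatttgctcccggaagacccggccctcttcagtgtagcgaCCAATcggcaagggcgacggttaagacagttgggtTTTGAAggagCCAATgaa
Kif11: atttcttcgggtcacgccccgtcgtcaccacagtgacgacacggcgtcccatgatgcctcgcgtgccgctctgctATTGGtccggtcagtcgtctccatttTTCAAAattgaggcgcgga
Cdk1: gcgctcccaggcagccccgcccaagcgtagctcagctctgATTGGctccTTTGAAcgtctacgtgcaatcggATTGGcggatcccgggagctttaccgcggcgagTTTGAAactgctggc
In 3 replication genes the capitals mark TTTGGCG in Mcm6 and the form TTTCCCG in Fen1. In Gins3 the same form lies on the opposite strand and is written CGGGAAA in the line. The genes are Fen1 (chr19:10204394-10204513, minus strand), Mcm6 (chr1:128359706-128359825, minus strand) and Gins3 (chr8:95633439-95633558, plus strand).
Fen1: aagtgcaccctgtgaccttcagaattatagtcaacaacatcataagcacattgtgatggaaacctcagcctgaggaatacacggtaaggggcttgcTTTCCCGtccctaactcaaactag
Mcm6: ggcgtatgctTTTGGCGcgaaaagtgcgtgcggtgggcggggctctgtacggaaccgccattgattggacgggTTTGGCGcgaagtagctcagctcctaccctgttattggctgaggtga
Gins3: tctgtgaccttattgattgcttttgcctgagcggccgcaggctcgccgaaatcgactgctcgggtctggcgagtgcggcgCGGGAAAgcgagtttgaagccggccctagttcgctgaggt
In 3 sarcomere genes the capitals mark the CArG box and, in Acta1, TATAAA as well. The genes are Acta1 (chr8:123894776-123894895, minus strand), Myom1 (chr17:71019437-71019556, plus strand) and Ldb3 (chr14:34588682-34588801, minus strand).
Acta1: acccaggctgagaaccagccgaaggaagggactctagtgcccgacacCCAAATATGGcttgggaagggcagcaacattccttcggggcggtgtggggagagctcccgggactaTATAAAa
Myom1: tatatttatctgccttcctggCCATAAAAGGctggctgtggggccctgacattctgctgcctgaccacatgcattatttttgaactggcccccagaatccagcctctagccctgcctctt
Ldb3: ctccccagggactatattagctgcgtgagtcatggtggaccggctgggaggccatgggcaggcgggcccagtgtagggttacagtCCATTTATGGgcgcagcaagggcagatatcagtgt
A CArG box was shared by genes that moved in opposite directions. Acta1, the skeletal muscle actin, fell from 136, 145 and 129.7 to 2.12, 4.96 and 4.001 CPM, while Myom1 rose from 10.04, 7.41 and 6.95 to 229.6, 175 and 145 CPM and Ldb3 from 21.1, 20.7 and 20.6 to 363, 265 and 187 CPM.

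Chromatin lists held members that moved in opposite directions. On the polycomb list 13 of 27 tested members fell and 8 rose, with a median log2 fold change of -0.28. Ezh2, the methylase of dividing cells, fell from 205, 186 and 184 to 51.7, 52.8 and 59.05 CPM and Cbx2 from 93.7, 105 and 106 to 22.2, 24.1 and 20.5 CPM, while Cbx6 rose from 50.2, 45.1 and 52.2 to 402, 431 and 432 CPM. Of the subunits of the BAF remodelling complex, 16 of 22 tested members fell and 3 rose, with a median log2 fold change of -0.67. Smarcd1 fell from 182, 179 and 176 to 43.8, 44.7 and 56.2 CPM and the ATPase Smarca2 rose from 45.8, 48.8 and 59.7 to 87.7, 87.4 and 85.9 CPM. Of the DNA methylation genes, 6 of 14 tested members rose and 7 fell (median log2 fold change -0.39). Dnmt3b fell from 106, 99.9 and 106 to 8.12, 5.85 and 9.12 CPM as Dnmt3a rose from 81.6, 84.01 and 90.5 to 376, 390.1 and 399.7 CPM, and Uhrf1, which guides copying of methylation, fell from 289, 281 and 281 to 62.5, 70.7 and 88.01 CPM. On the list of the nuclear lamina and its links to the cytoskeleton 11 of 18 tested members fell and 6 rose, with a median log2 fold change of -0.69. Lbr, which tethers heterochromatin in early cells, fell from 481, 503 and 492 to 99.2, 116 and 112 CPM, and Lmna, the lamin of stiff differentiated nuclei, rose from 40.7, 45.7 and 52.6 to 128, 149 and 162 CPM. Syne2, a giant linker protein, rose from 61.99, 56.3 and 54.8 to 591, 579 and 721 CPM.

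Imprinted genes, expressed from one parental copy and known for effects on fetal growth, took part at both extremes. On the list 14 of 28 tested members rose and 12 fell (median log2 fold change 0.16). Dlk1, a Notch-like membrane protein of fetal tissues, rose from 173, 184 and 186 to 1511, 1759 and 2078 CPM and Plagl1, a zinc finger regulator of imprinted genes, from 88.04, 101 and 109 to 2177, 2431 and 3149 CPM. H19, the noncoding RNA next to Igf2, rose from 2371, 2391 and 2280.2 to 6741, 5839 and 6351 CPM. Peg10 and Mest, both expressed from the paternal copy, fell from 4583, 4609 and 5081 to 361, 332 and 359.9 CPM and from 5172, 5005 and 5021 to 262, 356 and 403 CPM. Peg10 had still been at 5616 CPM at D8. For Igf2 the counts are uncertain, since its exons overlap those of another annotated gene and 38.8% of its 50-base stretches are unique to it.

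Most genes of heart muscle rose, many of them in the order of the cardiomyocyte markers over the D15 libraries, the first highest and the third lowest. Whether the share of cardiomyocytes sets that order was not tested. On the sarcomere list 23 of 27 tested members rose and 3 fell, with a median log2 fold change of 4.79. Myoz2, a Z disc protein that binds calcineurin, had no count at D5 and 132, 101 and 72.2 CPM at D15 (at least 717-fold). Csrp3, the muscle LIM protein, rose from 1.16, 0.839 and 1.36 to 326, 223 and 149.8 CPM and Myom2 of the M band from 0, 0.2796 and 0 to 51.2, 31.5 and 28.6 CPM. Lmod2, which lengthens thin filaments, had no count at D5 and 8.65, 8.15 and 7.04 CPM at D15 (at least 56.4-fold). Tpm1 fell from 2577, 2662 and 2377 to 1960, 1718 and 1506 CPM. In the group of calcium release units and tubules 16 of 20 tested members rose and 2 fell, with a median log2 fold change of 2.58. Sln (sarcolipin), which slows calcium uptake in atria, was without a count at D5 and had 46.9, 30.1 and 25.4 CPM at D15 (at least 241-fold). Cav3, the muscle caveolin, rose from 0.291, 0.419 and 0 to 13.1, 14.5 and 11.2 CPM. Bin1, known for shaping tubules, fell from 74.8, 80.7 and 78.3 to 31.8, 38.5 and 39.5 CPM and the calcium channel subunit Cacna2d1 from 58.8, 56.9 and 78.3 to 42.5, 33.3 and 28.6 CPM.

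Potassium channels end the action potential and set the resting voltage. On the list 17 of 20 tested members rose and 1 fell, with a median log2 fold change of 4.86. Kcnj2, the main inward rectifier of ventricular muscle, rose from 0.873, 1.12 and 0.682 to 28.9, 21.6 and 11.8 CPM. Kcnj8 and Kcnj11, the pores of ATP-sensitive channels, had 0, 0 and 0 and 0.146, 0.1398 and 0 CPM at D5 and 15.5, 11.7 and 8.801 and 21.004, 12.8 and 10.1 CPM at D15. Kcnd3, of the transient outward current, fell from 12.95, 13.98 and 19.1 to 8.12, 10.8 and 8.96 CPM. Of the receptors and couplers for hormones and nerves, 15 of 19 tested members rose and 4 fell (median log2 fold change 2.41). Chrm2, the muscarinic receptor through which the vagus slows the heart, rose from 0.291, 0 and 0 to 26.8, 24.5 and 16.8 CPM. Npr3 and Npr1, receptors of natriuretic peptides, rose from 4.802, 7.69 and 8.45 to 130.1, 172 and 183 CPM and from 17.2, 16.4 and 15.7 to 75.01, 88.1 and 84.5 CPM, and Agtr1a, of angiotensin, from 3.06, 2.94 and 1.77 to 24.4, 34.6 and 30.9 CPM.

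The links of muscle cells to matrix and to each other differed. On the list of the dystrophin complex and costamere, which tie the cell skeleton to the basement membrane, 16 of 19 tested members rose and 2 fell, with a median log2 fold change of 3.01. Dmd (dystrophin) rose from 2.18, 3.35 and 3.95 to 78.01, 75.3 and 65.1 CPM, while its relative Utrn (utrophin) fell from 356, 353 and 373 to 249, 233 and 214 CPM. Dag1 (dystroglycan) rose from 337, 326 and 341 to 773, 759.6 and 787 CPM and Sgcb from 20.7, 21.8 and 21.8 to 110.5, 105 and 100.3 CPM. On the intercalated disc list 8 of 16 tested members rose and 7 fell (median log2 fold change 0.18). The desmosome genes Dsg2 and Dsc2 fell from 191, 174 and 182 to 31.6, 21.98 and 30.2 CPM and from 91.97, 91.7 and 83.03 to 20.8, 18.3 and 24.003 CPM, while Vcl (vinculin) rose from 422, 450.4 and 409 to 909, 881 and 874 CPM. Ctnna3, the catenin of heart junctions, rose from 0.146, 0 and 0 to 14.1, 15.6 and 10.4 CPM. Gja5, the connexin of atria and conduction fibres, had no count at D5 and 16.9, 8.51 and 10.9 CPM at D15 (at least 86.0-fold). Of the epithelial markers, 2 of 7 tested members rose and 5 fell (median log2 fold change -3.36). The keratins among them split. Krt18 fell from 667, 751 and 811 to 19.2, 19.5 and 20.6 CPM and Krt8 from 478, 580.1 and 606 to 17.5, 19.5 and 21.4 CPM, while Krt7 rose from 1.31, 3.49 and 3.27 to 246, 266 and 259 CPM and Krt14 from 0.728, 0.699 and 0.954 to 3.35, 4.25 and 4.16 CPM. Of splicing regulators, 6 of 21 tested members rose and 12 fell (median log2 fold change -0.85), with Mbnl1 and Celf2 up by 2.16 ± 0.096 and 2.43 ± 0.08 and Celf1 and Srsf7 down by 1.04 and 1.31 on the log2 scale.

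Energy genes rose by modest factors in the respiratory chain and by larger ones in fuel supply. Of complex I, 33 of 39 tested members rose and 2 fell (median log2 fold change 0.78), and of complexes II to V, 41 of 46 tested members rose and 1 fell (median log2 fold change 0.84). The 1 fall, in Cox7a2l, was not called without the second D15 library. Ndufv3 rose from 29.4, 38.7 and 33.5 to 134, 135 and 114 CPM and the assembly factor Ndufaf4 fell from 40.02, 44.9 and 43.5 to 23.7, 26.6 and 22.6 CPM. Among genes of fatty acid uptake and oxidation 28 of 32 tested members rose and 2 fell, with a median log2 fold change of 1.499. Acadvl and Acadl, which start oxidation of long chains, rose from 17.9, 21.5 and 20.04 to 209.9, 160.4 and 149 CPM and from 39.7, 38.6 and 37.2 to 254, 207 and 181 CPM. Acsl3 fell from 291, 262 and 266 to 73.1, 71.1 and 59.8 CPM. The other fall, in Acads, was not called without any 1 of 4 libraries (the second, or the third, of either day), which leaves 1 fall. The list also held 1 fall with other scaling factors (RLE) or with the tool DESeq2. On the glycolysis list 22 of 24 tested members rose and 2 fell, with a median log2 fold change of 1.86. Its exceptions were glucose transporters, Slc2a1, given above, and Slc2a3, which fell from 2109, 2172 and 2242 to 243, 148 and 129 CPM. Enzymes rose, Eno2 from 3.35, 3.35 and 4.23 to 92.7, 89.7 and 77.5 CPM and Gpi1 from 254, 258 and 244 to 935, 806 and 753 CPM, as did the insulin-responsive transporter Slc2a4, from 7.71, 6.01 and 8.86 to 52.4, 36.7 and 30.9 CPM.

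The extracellular matrix held some of the highest counts at D15. The fibril collagens summed to 826, 839 and 894 CPM at D5 and 38750, 44280 and 48370 CPM at D15, in the order of the fibroblast markers, the third library highest, and both lists hold Col1a1, Col1a2 and Col3a1. The part of fibroblasts in the rise was not tested. On that list 13 of 17 tested members rose and 1 fell, with a median log2 fold change of 2.34. Col3a1 rose from 18.2, 15.5 and 17.9 to 11100.5, 12839 and 13655 CPM, Col1a1 from 107, 128 and 145 to 9926, 11799 and 12981 CPM and Col14a1, of mature fibrils, from 4.802, 3.77 and 5.86 to 94.3, 141 and 115 CPM. Col2a1, the cartilage and notochord collagen, fell from 34.9, 35.4 and 29.04 to 3.53, 2.304 and 2.56 CPM. Of network and other collagens 19 of 21 tested members rose and 2 fell, with a median log2 fold change of 3.92. Col4a2 and Col4a5, chains of basement membranes, rose from 285, 300 and 263 to 2891, 2763 and 2526 CPM and from 182, 170.3 and 184 to 1000.2, 914 and 955 CPM, and Col6a2 from 11.5, 15.1 and 15.1 to 1457, 1592 and 1639 CPM. Here the first D15 library was highest for the collagen IV chains and lowest for Col6a2. Col18a1, the source of endostatin, fell from 920.3, 929 and 839.9 to 372, 321 and 283 CPM.

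Genes that build and space the fibrils rose with them. Of 13 small leucine-rich proteoglycans 8 were tested, 7 rose and 1 fell. Bgn (biglycan) rose from 13.5, 14.3 and 12.4 to 1091, 1004 and 1050.2 CPM and Ogn (mimecan) from 0.873, 0.978 and 0.682 to 316, 379 and 415 CPM. Prelp had no count at D5 and 20.7, 19.9 and 23.04 CPM at D15 (at least 151-fold), and Podn fell, from 5.09, 5.03 and 5.45 to 3.18, 1.77 and 4.001 CPM, with an adjusted p of 0.04. Without any single library but the third at D15 this call was lost, which leaves 0 falls on the list. It was lost too with DESeq2 and without the filter on low counts. On the collagen processing list 19 of 22 tested members rose and 3 fell, with a median log2 fold change of 1.89. Loxl2, a relative of Lox, rose from 79.3, 81.5 and 77.04 to 1133, 1025 and 1009 CPM and the prolyl hydroxylase gene Leprel2 from 10.2, 7.83 and 8.73 to 136, 152 and 154 CPM. Pcolce2, an enhancer of procollagen cleavage, fell from 4.802, 5.73 and 4.499 to 0, 0.177 and 0 CPM. On the elastic fibre list 16 of 16 tested members rose, with a median log2 fold change of 3.58. Fbln5, which places elastin on microfibrils, rose from 0.582, 0 and 0.273 to 215, 256 and 277 CPM, Ltbp3, which holds latent TGF-beta, from 1.89, 1.398 and 1.23 to 213, 219 and 231 CPM and Mfap4 from 11.1, 13.98 and 14.5 to 252, 275 and 287 CPM.

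Basement membranes, adhesion receptors and matrix remodelling changed in composition. On the laminin and basement membrane list 12 of 15 tested members rose and 2 fell, with a median log2 fold change of 1.58. Nid1 and Nid2, which bridge laminin and collagen IV, rose from 80.6, 80.7 and 89.03 to 734, 741 and 699 CPM and from 515, 523 and 472 to 2187, 2184 and 2417 CPM. Lamc3 rose from 0.873, 1.12 and 0.818 to 61.4, 43.1 and 56.8 CPM and Agrn (agrin) fell from 455, 433 and 444 to 307, 282 and 281 CPM. Of the integrins, 14 of 17 tested members rose and 1 fell (median log2 fold change 1.97). Itga8 rose from 16.4, 17.6 and 16.9 to 236, 277 and 241 CPM, Itga7, the laminin receptor of muscle, from 0.728, 0.978 and 0 to 104, 65.9 and 54.9 CPM and Itgb3 from 1.16, 0.839 and 0.954 to 38.7, 27.5 and 21.8 CPM. Without the first or second D5 library or the first D15 library, Itga4 passed the test as well, giving 2 falls. The list also held 2 falls with upper quartile scaling factors, with DESeq2 or in a fit of the D5 and D15 libraries alone. Itga5, the fibronectin receptor chain, fell from 239, 264 and 252 to 175, 165 and 147 CPM as Fn1 itself rose. Among proteases and inhibitors 19 of 21 tested members rose, with a median log2 fold change of 2.71. Mmp2 rose from 79.7, 87.8 and 85.1 to 931, 926 and 1061 CPM. Hyaluronan and heparan sulphate genes split evenly, as 8 of 19 tested members rose and 8 fell (median log2 fold change 0.39). Hapln1, which fixes hyaluronan to its carrier proteins, fell from 43.2, 41.1 and 47.99 to 0.706, 0.354 and 0.4801 CPM, the direction of Has2, while Sdc4 rose from 26.5, 27.1 and 25.9 to 271, 258 and 263 CPM and Gpc3 from 499, 488 and 492 to 1422, 1618 and 1661 CPM.

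Hedgehog genes are the subject of the series. Hedgehog ligands bind the receptor PTCH1 with its co-receptors and act through GLI factors. Ptch1 fell from 39.3, 43.5 and 56.04 to 18.7, 11.5 and 7.84 CPM, Gli2 from 118, 117 and 109 to 39.5, 40.6 and 36.97 CPM and Gli3 from 183, 199 and 222 to 92.7, 94.6 and 119 CPM. Gli1 was too low to be tested. Hhip, a decoy receptor, had 2.62, 2.24 and 2.32 CPM at D5 and no count at D15 (at least 14.0-fold lower). The co-receptors Gas1 and Boc rose from 90.5, 91.8 and 85.2 to 477, 592 and 658 CPM and from 28.2, 30.6 and 32.04 to 96.5, 107 and 117 CPM. Tbx5, the heart and forelimb factor, rose from 6.55, 6.57 and 6.14 to 86.3, 74.97 and 57.6 CPM. On the whole list 9 of 14 tested members fell and 3 rose, with a median log2 fold change of -0.77.

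Other signalling families held members that moved in opposite directions. Of the Wnt ligands, receptors and antagonists, 12 of 29 tested members rose and 14 fell (median log2 fold change -0.88). Wnt5a, a ligand of the beta-catenin-independent branch, rose from 65.3, 67.8 and 72.8 to 495, 577 and 522 CPM and the antagonist Sfrp2 from 9.02, 10.3 and 9.54 to 193, 290.1 and 280.2 CPM. The antagonist Dkk1 fell from 36.8, 28.8 and 34.4 to 0.353, 0.886 and 1.12 CPM and the nuclear factor Lef1 from 42.3, 40.4 and 43.2 to 9.71, 8.51 and 10.1 CPM. Of BMP and TGF-beta ligands and antagonists, 10 of 21 tested members rose and 8 fell (median log2 fold change 0.44). Tgfb3 rose from 1.46, 1.96 and 4.09 to 125, 150.5 and 159 CPM as Tgfb2 fell from 350.4, 348 and 287 to 112, 96.1 and 88.01 CPM, and Bmp6 rose from 4.37, 4.05 and 7.64 to 38.5, 38.8 and 39.5 CPM as Bmp2 fell from 84.98, 75.1 and 79.8 to 9.18, 6.03 and 4.32 CPM. Of the Notch genes, 11 of 16 tested members rose and 2 fell (median log2 fold change 1.01). Heyl, a target of Notch, had no count at D5 and 15.003, 14.4 and 7.201 CPM at D15 (at least 85.6-fold), while Hes1 fell from 22.3, 31.03 and 28.6 to 14.6, 13.8 and 10.1 CPM and Notch3 from 122, 131 and 148 to 53.8, 43.2 and 37.8 CPM.

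Of the genes of the insulin-like growth factor axis, 9 of 14 tested members rose and 4 fell (median log2 fold change 1.29). Igfbp4 rose from 109, 119 and 111 to 357, 429 and 474 CPM and the receptor Igf1r fell from 444, 425 and 449 to 243, 217 and 237 CPM, opposite to its ligand Igf2. Of the retinoic acid genes, 8 of 16 tested members rose and 7 fell (median log2 fold change 0.14). Aldh1a1 and Aldh1a2, which make retinoic acid, rose from 0.728, 0 and 1.09 to 366, 332 and 323 CPM and from 14.99, 12.6 and 12.4 to 173, 219.8 and 202 CPM. Crabp1, which binds it in the cytosol, fell from 15.9, 14.5 and 10.4 to 0, 0 and 0.16002 CPM. Of the semaphorins, ephrins and other guidance genes, 15 of 27 tested members rose and 9 fell (median log2 fold change 0.37). Sema6d rose from 5.68, 5.45 and 4.77 to 96.7, 92.7 and 77.9 CPM, while the receptors Robo2 and Nrp1 fell from 106, 93.2 and 87.7 to 30.4, 22.7 and 27.5 CPM and from 1242, 1225 and 1322 to 473, 499.8 and 536 CPM.

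Genes of defence and of degradation in lysosomes rose. On the complement and MHC class I list 15 of 16 tested members rose and 1 fell, with a median log2 fold change of 2.41. B2m and H2-K1, the chains of class I molecules, rose from 54.9, 49.9 and 53.7 to 186, 201 and 175 CPM and from 13.7, 15.7 and 15.4 to 104, 95.2 and 84.97 CPM. Serping1, the inhibitor of C1, rose from 8.44, 10.6 and 8.999 to 276, 298 and 332 CPM and Tap1, the peptide transporter, fell from 16.3, 20.3 and 15.1 to 4.06, 5.85 and 5.76 CPM. Of the chemokines and cytokines, 11 of 13 tested members rose and 2 fell (median log2 fold change 2.13). One of the falls, in Lif, was lost without any single library but the third at D15, which leaves 1. With RLE scaling factors or DESeq2 the list held 1 fall as well. Ccl2, which draws monocytes, rose from 0.437, 0.2796 and 0.136 to 64.1, 73.4 and 85.6 CPM. Of 17 markers of macrophages and blood 4 had enough counts for the test, and the list summed to 5.24, 5.45 and 4.91 and 29.1, 32.1 and 30.9 CPM. Of the interferon-induced genes, 8 of 13 tested members rose and 2 fell (median log2 fold change 0.88). One of the falls, in Ifit2, was lost without the third D5 or the second D15 library, which leaves 1. Bst2 rose from 7.13, 7.83 and 9.27 to 141, 158 and 138 CPM and Ifitm1 fell from 42.9, 45.6 and 35.7 to 3.001, 3.01 and 2.88 CPM. On the lysosome list 27 of 29 tested members rose and 1 fell, with a median log2 fold change of 1.48. The proteases Ctsb and Ctsl rose from 89.3, 91.8 and 85.4 to 632, 628 and 627 CPM and from 309, 325 and 308 to 1467, 1478 and 1381 CPM, the membrane protein Lamp2 from 209, 201 and 197 to 1001, 1096 and 1072 CPM. Npc1, which exports cholesterol from lysosomes, fell from 125, 124 and 121 to 94.8, 97.8 and 92.2 CPM. The proteasome went the other way, and on its list 29 of 35 tested members fell and 2 rose, with a median log2 fold change of -0.50. Psmb7 fell from 225, 218 and 221 to 106, 96.1 and 114 CPM and Psmb10, a subunit of the immune form, rose from 4.802, 6.85 and 5.73 to 18.4, 19.5 and 14.6 CPM. Of genes answering to ATF4, 7 of 13 tested members rose and 4 fell (median log2 fold change 0.76), with Asns down from 189.9, 186 and 178 to 52.95, 41.7 and 34.7 CPM and Nupr1 up from 0.291, 0.2796 and 0.409 to 20.1, 26.8 and 21.3 CPM.

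The balance within pairs of related genes often moved. In 32 pairs of genes with like functions the log2 ratio of CPM, first gene over second, was taken in each library with a prior count of 2 added. The libraries of the days did not overlap in 28 pairs (of all single genes, 80.0% did not overlap). Of the 28 pairs, 23 moved toward the first-named and 5 toward the second-named gene. That split depends on which gene of a pair is named first and is not read as a result. With 3 libraries against 3 an exact permutation test cannot give a two-sided p under 0.1, so the pairs are described without one. The largest change was between laminin chains. Lama1, the alpha chain of the early embryo, fell from 227, 242 and 200 to 6.18, 8.33 and 12.3 CPM as Lama2, that of muscle, rose from 5.68, 5.03 and 5.04 to 141, 121 and 109 CPM, and the ratio went from -5.32 ± 0.16 to 3.79 ± 0.67 (SD, n = 3). Per kilobase of exon, Lama2 went from 0.0139 to 8.08 times the level of Lama1. The exon length used here merges all annotated transcripts of a gene and can differ from that of the RNA made. Values per kilobase are therefore approximate.

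Ratios of sarcomere and energy genes shifted, in several pairs with both genes rising. Myh6, the fast myosin of adult mouse heart, went from 0.255 to 22.1 times Myh7 per kilobase, with Myh6 at 2800, 2060 and 1600 CPM and Myh7 at 169, 113 and 92.3 CPM at D15. Myh7 itself rose from 46.0, 44.2 and 27.4 CPM at D5. Tnni3, the cardiac troponin I, went from 0.0124 to 1.69 times its fetal relative Tnni1 per kilobase. The log2 ratio of their CPM went from -6.285 ± 0.27 to -0.06 ± 0.10 (SD, n = 3), a change of 6.23. The creatine kinase ratio of Ckm over Ckb changed by 6.14, that of the cytochrome oxidase subunits Cox6a2 over Cox6a1 by 6.02 and that of Cox7a1 over Cox7a2 by 3.02. Ckm and Cox6a2 had no count at D5, so the size of their changes is set by the prior count: with 0.5 in its place they were 8.12 and 8.004. Ckb, Cox6a1, Cox7a2 and Tnni1 rose as well. The glucose transporter ratio of Slc2a4 over Slc2a1 changed by 4.92 and that of the hexokinases Hk1 over Hk2 by 2.33. At D15 Slc2a4 stood at 0.0761 times Slc2a1 per kilobase, and Myl2, the ventricular light chain, at 0.0265 times the atrial Myl7. The log2 ratio of Acta1 to the cardiac actin Actc1 went from -0.25 ± 0.03 to -8.73 ± 0.98. Actc1 itself rose from 162, 176 and 151 to 2250, 1700 and 1120 CPM.

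Ratios of regulators shifted too. The ratio of Dnmt3a over Dnmt3b changed by 5.91, that of Lmna over Lmnb1 by 2.38, that of Ezh1 over Ezh2 by 2.304 and that of Myc over Mycn by 2.24, where Mycn fell and Myc was not called. Both Lin28 genes fell, Lin28a further than Lin28b, and its ratio to Lin28b went from 2.88 ± 0.05 to -1.63 ± 0.23. Some pairs moved little. Fbn1 and Fbn2, the fibrillins of elastic fibres, both rose, and their ratio was 0.74 ± 0.04 at D5 and 0.75 ± 0.07 at D15 with overlapping libraries. Libraries of the days did not overlap for the lactate dehydrogenases, though the ratio of Ldhb over Ldha moved little, being -2.75 ± 0.07 and -2.605 ± 0.08. The ratio of Cpt1b, the muscle carnitine transferase, to the liver form Cpt1a went from 2.08 ± 1.37 to -6.25 ± 0.28, as Cpt1a rose from 0.728, 1.12 and 0 to 243, 253 and 258 CPM. The level of Cpt1b is uncertain, because only 21.4% of its 50-base stretches are unique to it.

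**Figure D5:**
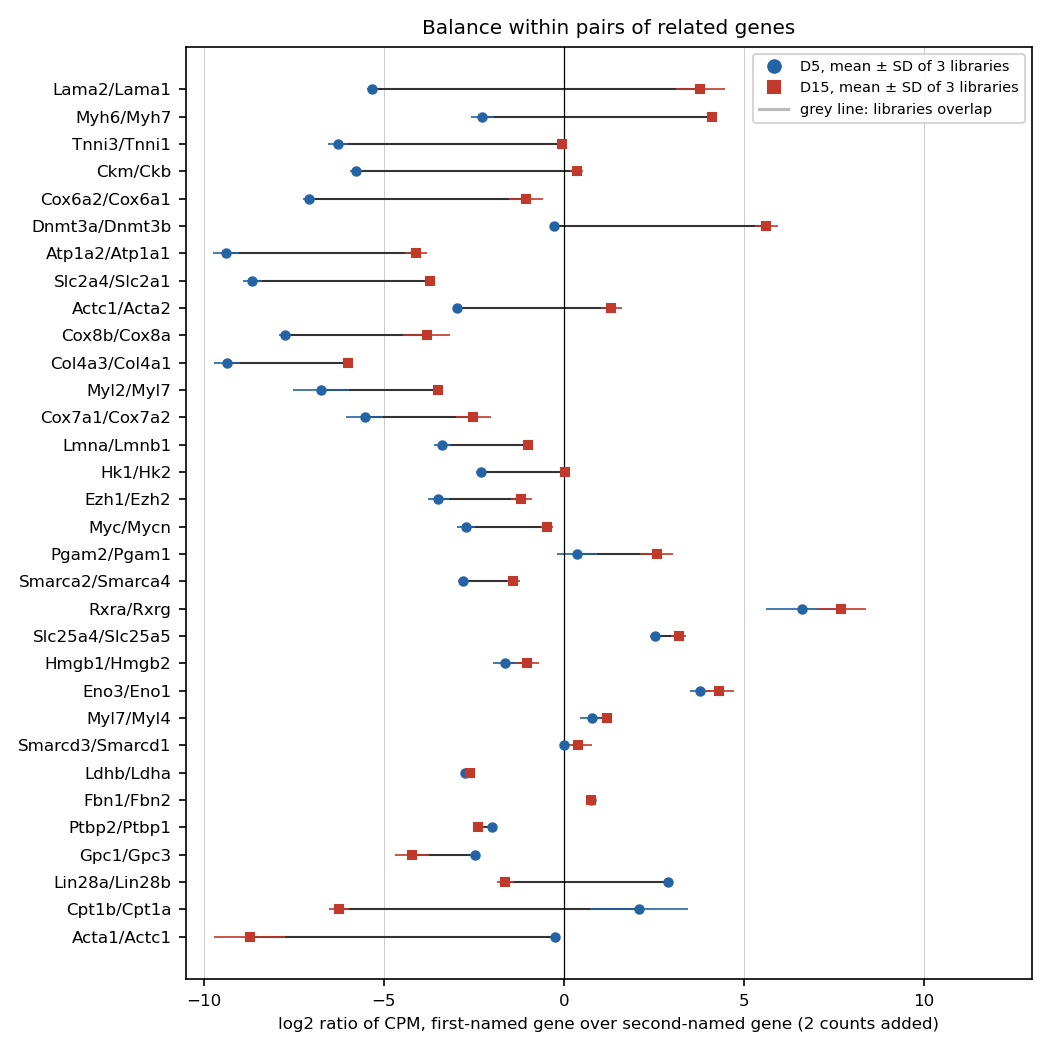
Log2 ratio of CPM, first-named over second-named gene, in 32 pairs at D5 (blue circles) and D15 (red squares), as mean ± SD of 3 libraries, with grey lines where libraries of the days overlap. The Lama2/Lama1 pair moves furthest to the right and the Acta1/Actc1 and Cpt1b/Cpt1a pairs furthest to the left, while Fbn1/Fbn2 stays in place.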

How the data were processed

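Raw read counts per gene symbol were deposited by the authors as 1 table. Poly(A) libraries (TruSeq RNA v2) were sequenced as single-end 50-base reads, per the labels' protocols, and aligned to mm10 with STAR, per the submitters' processing notes. The counting tool, its annotation and its use of strand are not given in the sources used here. Of 21 columns, 18 matched a day of the labels and 3 matched no sample and were left out. The columns carry no replicate number, so libraries are numbered in column order only.

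Counts were fitted with edgeR 4.0.16 (R 4.3.3): trimmed mean scaling, filterByExpr with a minimum count of 10, a mean for each of the 6 days over 18 libraries (12 residual degrees of freedom) and the robust quasi-likelihood test of D15 against D5, Benjamini-Hochberg adjusted over 13116 genes. The biological coefficient of variation was 8.27%. A gene was called at an adjusted p under 0.05, and "rose" and "fell" are used of called genes alone. Fold changes are log2 with a prior count, and SE is the unshrunk estimate over the square root of F. The fit was also run on simulated counts with few changed genes and small folds, which does not cover a change in most genes. A fold against a day with no count sets that day at a floor of 3 counts over its 3 libraries, and counting intervals cover counting error only.

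The 73 gene lists, the pairs and the rule for named genes were chosen with earlier results of these data known. Named were the 12 largest rises and falls with at least 32 CPM on the higher day and no overlap, the 10 highest genes without a count on the other day, the 12 genes that left their end levels most, the 10 with most counts per day, the pairs, the genes of the series, and up to 4 members of each list with the smallest p in its main direction and 2 in the other. Some genes that the rule names are not reported here. Nppa, Isl1, Tnnt2 and the genes whose promoters are printed, apart from Cdc20 and Acta1, were chosen after their values were seen.

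Of the symbols, 20953 matched the GENCODE M21 annotation (mm10) and 1917 matched by an older symbol. Coordinates are from it. Exons overlap those of another annotated gene for Acadvl, Acsl3, Aldh1l2, Atp2a2, Bin1, Bmp6, Cbx6, Ccna2, Ccnd1, Cdc20, Celf2, Chrm2, Ckm, Col3a1, Col4a1, Col4a2, Col6a6, Cox6a2, Cpt1b, Ctsb, Ctsl, Dnmt3a, Dnmt3l, Dsg2, Eef1a1, Enpp2, Eomes, Esrra, Ezh2, Fam123c, Fbn1, Fbn2, Fgfr3, Fn1, Foxp1, Gas1, Gja5, Gli1, Gli3, Gpi1, H19, Has2, Hhip, Hk1, Hmga2, Hmgcs1, Hoxb2, Hspb6, Igf2, Igf2bp1, Igfbp7, Itga4, Itga7, Itga8, Kcnd3, Krt7, Krt8, Lama2, Lamc3, Lbr, Lef1, Lin28a, Lox, Loxl2, Ltbp3, Mest, Mfap4, Mrpl33, Mxd4, Mxi1, Myh6, Myh7, Myl2, Ncl, Nfia, Nfic, Nfix, Nid1, Nid2, Notch3, Npc1, Npr1, Npr3, Nrp1, Plagl1, Pln, Ppat, Prelp, Psmb7, Rbl2, Rpl4, Sall4, Sfrp2, Slc2a1, Smarca2, Smarcd1, Sox5, Syne2, Tap1, Tcp1, Tgfb2, Tgfb3, Thra, Tnni3, Tnxb, Trf, Trim71, Vcl, Wnt5a, and their counts are uncertain because the use of strand is not known. Under 80% of 50-base stretches are unique for Cpt1b, Eef1a1, Igf2, Krt8, Ldhb, Loxl2, Myh6, Trf. The symbols Aldh1a2, C3, Ckb, Clca1, Eef1a1, Gpi1, H19, H2-K1, Hist1h1c, Igf2bp1, Loxl2, Ppat, Trf are also older names of other genes.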

Additional observations from a re-analysis of the deposited data

How the results depend on the processing

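The number of genes called (10231) lay between 9967 and 10924 under other scaling factors, filters and tools (DESeq2, limma-voom), in a fit of the D5 and D15 libraries alone, and without any 1 of the 6 libraries (9967 to 10044). Risen genes were 51.6% of calls, and 50.5% to 53.0% under those settings, which all scale the libraries to one another, so that share is relative. When a fold change of more than 2 was demanded, 4093 genes were called, of which 2705 rose and 1388 fell, and 741 of 1293 called list members were left, the stricter threshold being the cause. Of 451 named genes called, 11 lost their call under an alternative other than this threshold and 7 others gained one, and none of the 467 tested reversed. Hk2 was lost without any D5 library or the first D15 library, and Ezh1 without the first D15 library. With promoters cut to the 200 bases before the start, TTTGAA stood in 35.1% of mitosis promoters, down from 70.3%, and TTTGGCG in 7.69% of replication promoters, down from 23.1%. Without the filter on low counts 4 HOX genes rose and 6 SOX genes fell, 7 histone genes and 7 hepatic markers rose. The hepatic list had 2 risen members, 4 without the second D5 library or with a filter of 1 CPM in 3 libraries, and 1 with limma-voom or in the fit of the D5 and D15 libraries alone. With a prior count of 0.5 the ratios of Ckm over Ckb, Cox6a2 over Cox6a1, Tnni3 over Tnni1, Myl2 over Myl7 and Lin28a over Lin28b changed by 8.12, 8.004, 6.86, 4.499 and -5.06. No paired analysis was possible because the count columns carry no replicate number, so the replicate block was not run. Depth limits genes with few counts: those without a count on a day have bounds only. No member of the cytosolic ribosomal protein list rose in the main fit, and 1 rose with RLE scaling factors or limma-voom. Without the second or the third D5 library or the first or the second D15 library, 1 or 2 rose.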
